A study of Rattus norvegicus with 10 samples.

Results

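The genes described here encode the receptors through which noradrenaline and acetylcholine act on heart muscle cells: the beta 1 adrenergic receptor gene Adrb1, the alpha 1 adrenergic receptor genes Adra1a, Adra1b and Adra1d, and the M2 muscarinic receptor gene Chrm2. The 5 genes were taken by name, and each had 1 probe set on the array, so that 5 of the 31042 probe sets left without controls were members. Their RNA was read on Affymetrix rat arrays from ventricular cardiomyocytes of Lewis rats aged 0 to 3 days, grown in primary culture. For 3 days the cells received pulses at 1 Hz and 2 V/cm together with 10 µmol/L blebbistatin, which inhibits myosin II and so contraction (pulsed with blebbistatin, n = 3 arrays), the pulses alone (pulsed, n = 4), or neither (nonpulsed, n = 3). Cells were isolated and cultured in 4 rounds, called series here, and each array carried the pooled RNA of duplicate experiments. All 3 groups were present in series 2 and 3, pulsed and nonpulsed cultures in series 1, and blebbistatin and pulsed cultures in series 4. Because the drug was never given without pulses, its effect on contraction and any other action cannot be told apart.

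The beta 1 receptor couples to the stimulatory G protein Gs, which activates adenylyl cyclase; the cyclic AMP formed activates protein kinase A and raises the rate and force of the beat. The alpha 1 receptors couple to Gq and phospholipase C, which releases inositol trisphosphate and activates protein kinase C, and their stimulation is a classical trigger of growth in cultured newborn rat heart muscle cells. The M2 receptor couples to Gi, which lowers cyclic AMP and opens the acetylcholine-gated potassium channel built from the products of Kcnj3 and Kcnj5.

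Values are the deposited log2 levels. All 10 markers of heart muscle cells had a probe set above the filter on low values, with summed linear levels of 76673 to 82717 on blebbistatin, 72538 to 86186 on pulsed and 54025 to 74876 on nonpulsed arrays. Markers of fibroblasts (11 of 11 with a probe set) summed to 30912 to 51296 on blebbistatin, 36210 to 61477 on pulsed and 39420 to 61640 on nonpulsed arrays. Those of macrophages and leukocytes (10 of 10) summed to 1444 to 2944 on blebbistatin, 1586 to 5001 on pulsed and 1766 to 5976 on nonpulsed arrays. Markers of smooth muscle cells and pericytes (11 of 11) summed to 13313 to 16456 on blebbistatin, 20550 to 23171 on pulsed and 18985 to 27634 on nonpulsed arrays, and markers of Schwann and neural cells (7 of 10) to 624 to 702, 605 to 923 and 655 to 1130 in the same order of groups. Markers of endothelial cells (8 of 9) summed to 1246 to 2030, 1282 to 2098 and 1264 to 1748 in that order. Those of atrial muscle cells (6 of 6) summed to 19056 to 26240, 17864 to 26577 and 22057 to 26478. The brightest of them were Nppa and Pam, at 13.45 and 12.68 in pulsed cultures. Which cells of these ventricular cultures expressed them was not tested, so this sum does not measure a share of atrial cells. No marker of these lists was at the lowest level on all arrays. Of the 7 Schwann and neural markers with a probe set, 5 were above the filter, and Sox10 and Chat were below it. Above it were also 6 of 8 endothelial markers and 8 of 10 of macrophages and leukocytes. Array medians lay between 6.57 and 6.78. Signals of control genes at the 3' end exceeded those at the 5' end, a sign of RNA quality, and the excess for beta-actin was 0.45 (log2) on the nonpulsed array of series 1 and 0.60 to 0.77 elsewhere. For GAPDH and hexokinase that array lay within the range of the rest. The GAPDH excess was 0.19 to 0.23 on blebbistatin arrays, 0.06 to 0.17 on pulsed and 0.06 to 0.17 on nonpulsed arrays, so it moved with the drug, and its part in the receptor values was not tested. The nonpulsed array of series 1 also held the lowest value of 22.6% of the 23281 probe sets kept, and the highest value of 14%. The blebbistatin array of series 4 held the highest value of 21.6%.

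Of the 5 receptor genes, 4 had a promoter in the RefSeq table of assembly GRCr8, which covers 250 bases before to 50 bases after the annotated start. The promoters of Adra1b and Adra1d are shown because these genes had the widest ranges on the arrays, and that of Adrb1 because its pattern was closest to that of Adra1b. They lie at chr10:28814298-28814597 on the minus strand for Adra1b, chr3:139262282-139262581 on the minus strand for Adra1d and chr1:265776853-265777152 on the plus strand for Adrb1. Capitals mark matches on either strand to the GC box GGGCGG or to TGACG, the short form of the cyclic AMP response element.
Adra1b: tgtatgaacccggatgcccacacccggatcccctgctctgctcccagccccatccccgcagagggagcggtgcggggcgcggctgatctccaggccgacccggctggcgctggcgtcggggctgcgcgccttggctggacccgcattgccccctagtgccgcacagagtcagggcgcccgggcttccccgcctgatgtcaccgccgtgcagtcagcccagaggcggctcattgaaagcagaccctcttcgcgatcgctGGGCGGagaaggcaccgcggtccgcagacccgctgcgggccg
Adra1d: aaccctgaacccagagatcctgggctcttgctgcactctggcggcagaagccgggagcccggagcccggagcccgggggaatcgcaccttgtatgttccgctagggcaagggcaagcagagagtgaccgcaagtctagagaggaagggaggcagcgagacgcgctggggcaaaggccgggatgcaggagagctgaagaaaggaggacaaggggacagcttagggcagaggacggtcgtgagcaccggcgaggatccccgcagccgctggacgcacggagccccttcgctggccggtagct
Adrb1: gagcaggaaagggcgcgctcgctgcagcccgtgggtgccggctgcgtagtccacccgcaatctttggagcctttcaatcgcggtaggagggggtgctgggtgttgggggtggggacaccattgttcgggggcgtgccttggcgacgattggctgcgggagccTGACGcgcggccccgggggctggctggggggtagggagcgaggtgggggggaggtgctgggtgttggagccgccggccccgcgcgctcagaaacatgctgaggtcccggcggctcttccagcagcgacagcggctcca

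The Adra1b promoter holds 1 GC box, 8 bases after the start, a motif found in 33.1% of the 33469 promoters of that length. The Adrb1 promoter holds 1 TGACG, at position -88 relative to the start, against 21.2% of all promoters. The Adra1d promoter holds neither. A search for the MCAT element GGAATG, the TATA box TATAAA and the E-box CANNTG on both strands found 0 matches in these promoters and in that of Chrm2, where 14.2%, 14.2% and 72.1% of all promoters have one. The sequences are rich in G and C, at 72% for Adra1b, 65.7% for Adra1d and 70.7% for Adrb1, against a median of 51.7%, and they hold 32, 22 and 28 CG dinucleotides against a median of 7. These matches describe letters in 1 window per gene, and the arrays give no measurement at the promoters.

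The level of Adra1b (probe set 1368574_at) was the one that differed most between pulsed and nonpulsed cultures. It read 9.83, 9.62, 9.0 and 9.78 in the pulsed cultures of series 1 to 4, against 7.75, 8.58 and 8.65 in the nonpulsed cultures of series 1 to 3. Every pulsed array was above every nonpulsed one. The group means were 9.56 ± 0.38 in pulsed (SD, n = 4) and 8.33 ± 0.50 in nonpulsed cultures (SD, n = 3). The linear model of limma with culture series as a block gave a 2.13-fold difference, with a 95% confidence interval of 1.32 to 3.44 (log2 change 1.09, SE 0.30). It did not pass the threshold of 0.05 over all probe sets (limma, Benjamini-Hochberg adjusted p = 0.481). Taken series by series, Adra1b was higher in the pulsed culture by 2.08, 1.04 and 0.35 in series 1, 2 and 3, so the sign held in all 3 while the size varied. In bulk cultures a larger share of the cells that express a gene and more of its RNA per cell cannot be told apart.

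Adra1d (probe set 1368534_at) encodes the alpha 1 receptor best known from blood vessels. It read 8.49, 8.39, 7.62 and 7.99 in the pulsed cultures of series 1 to 4, against 6.71, 8.0 and 7.83 in the nonpulsed cultures of series 1 to 3. The groups overlapped, and the pulsed array of series 3 lay below its nonpulsed partner. The differences in series 1, 2 and 3 were 1.77, 0.39 and -0.21. The log2 change was 0.59 (SE 0.32, 95% confidence interval -0.15 to 1.34; limma, Benjamini-Hochberg adjusted p = 0.606).

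Adra1a (probe set 1369797_at) encodes the alpha 1 receptor long linked to growth of heart muscle cells, and was the only receptor gene of the 5 below the filter. Its mean of 4.57 lay below the limit of 5.09 under which probe sets were left out, and its nonpulsed array of series 1 was at the lowest level of the array. It read 4.57, 5.10, 4.67 and 4.70 in pulsed cultures, against 3.38, 4.02 and 4.74 in nonpulsed cultures. The groups overlapped, and the differences were 1.19, 1.08 and -0.07 in series 1, 2 and 3, of which the first may be understated by the lowest level. In the fit without the filter the log2 change was 0.68 (SE 0.25, 95% confidence interval 0.06 to 1.29; limma, Benjamini-Hochberg adjusted p = 0.571 over 31042 probe sets).

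**Figure D1:**
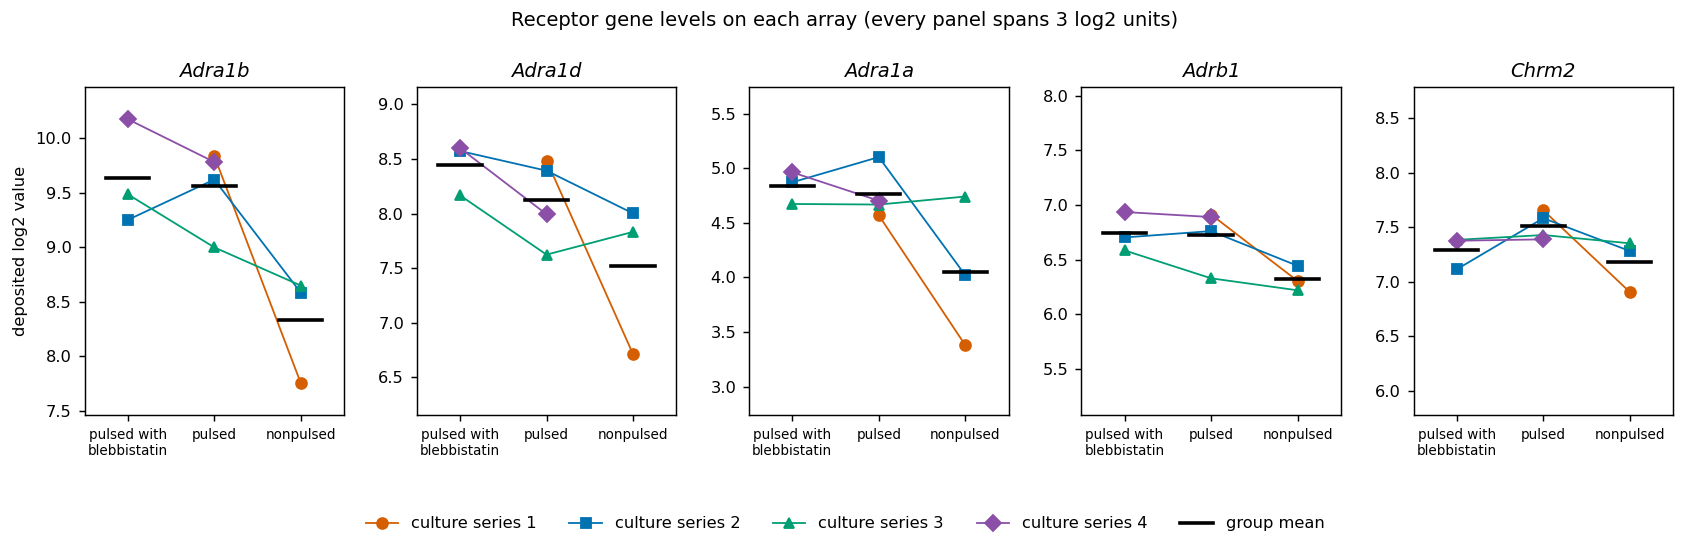
Deposited log2 level of each receptor gene (y axis, 3 log2 units in every panel) on each array, by group on the x axis. Points of 1 culture series share a colour and are joined, and black bars are group means. The nonpulsed array of series 1 is the lowest for Adra1b, Adra1d, Adra1a and Chrm2. The blebbistatin array of series 4 is the highest for Adra1b, Adra1d and Adrb1.

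Adrb1 (probe set 1369806_at) varied less than the alpha 1 genes, with a range of 0.72 over the 10 arrays against 2.42 for Adra1b. It read 6.91, 6.76, 6.33 and 6.89 in pulsed cultures, against 6.30, 6.44 and 6.22 in nonpulsed cultures. The pulsed array was the higher one in each of the 3 series, by 0.61, 0.32 and 0.11, although the groups overlapped. The log2 change was 0.34 (SE 0.12), a 1.27-fold difference with a 95% confidence interval of 1.05 to 1.53 (limma, Benjamini-Hochberg adjusted p = 0.489).

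Chrm2 (probe set 1369245_at) had a similarly narrow range of 0.75. It read 7.65, 7.58, 7.43 and 7.39 in pulsed cultures, against 6.91, 7.28 and 7.35 in nonpulsed cultures. The groups did not overlap, but the lowest pulsed and the highest nonpulsed array were close together. The differences were 0.75, 0.30 and 0.08 in series 1, 2 and 3, and the log2 change was 0.34 (SE 0.15, 95% confidence interval -0.02 to 0.69; limma, Benjamini-Hochberg adjusted p = 0.559).

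Of the 4 receptor probe sets above the filter, 0 passed in this comparison, as did 0 of all 23281 tested (0%). At an unadjusted p under 0.05 in limma, Adrb1 and Adra1b were higher, against 7.71% of all probe sets. All 5 receptor genes had a positive fitted change, against 61.7% of the 31042 probe sets of the unfiltered fit. Adrb1, Adra1b and Chrm2 were higher in all 3 series that held both groups (24.1% of the probe sets tested), and Adra1b and Chrm2 had groups that did not overlap with the pulsed one above (6.17%).

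**Figure D2:**
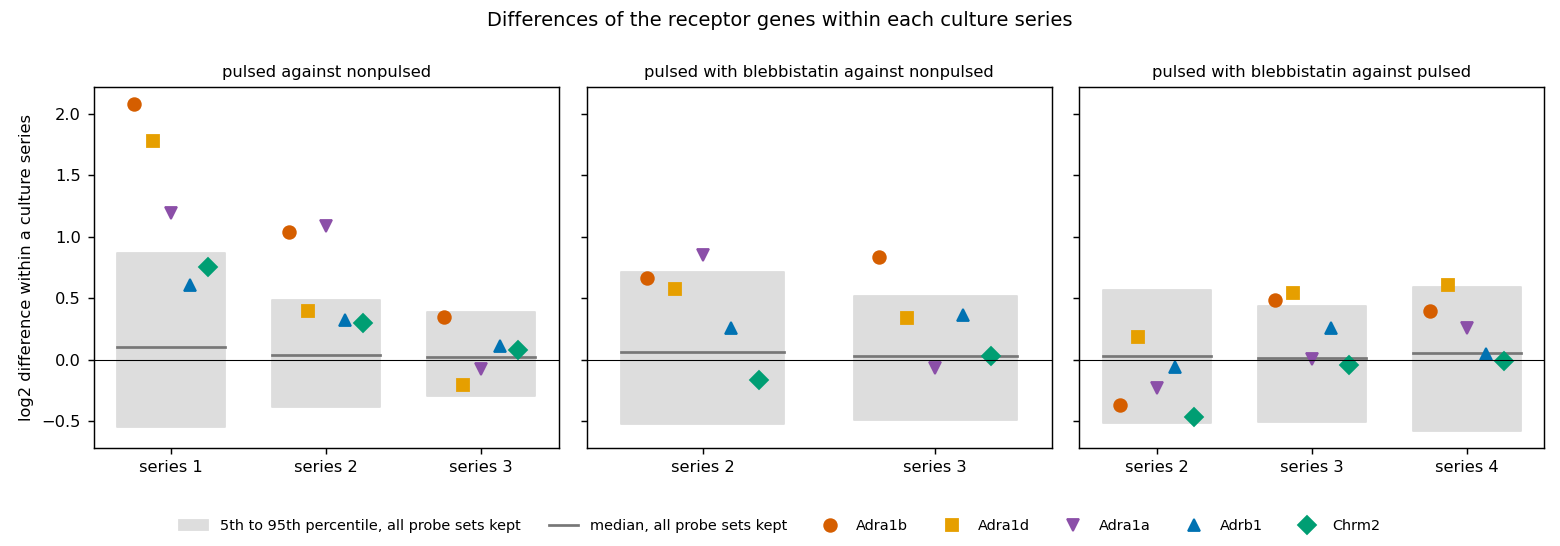
Log2 difference of each receptor gene within each culture series (y axis), by comparison. Grey boxes span the 5th to 95th percentile and grey lines the median of all 23281 probe sets kept. The largest differences are those of Adra1b (2.08) and Adra1d (1.77) in series 1, and only Adra1a (-0.07) and Adra1d (-0.21) are below 0 between pulsed and nonpulsed cultures, both in series 3.

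All 5 differences were smaller without series 1. Without the nonpulsed array of series 1 the fitted log2 change was 0.64 for Adra1b, 0.44 for Adra1a, 0.22 for Adrb1, 0.15 for Chrm2 and 0.05 for Adra1d. Without series 3 they were larger, at 1.42 for Adra1b, 1.07 for Adra1a, 0.98 for Adra1d, 0.45 for Chrm2 and 0.44 for Adrb1. Markers of heart muscle cells moved with the receptors: their median differences in series 1, 2 and 3 were 0.81, 0.23 and 0.03. In the same order, medians were -0.52, -0.04 and 0.15 for smooth muscle cells and pericytes, and 0.12, -0.08 and 0.065 for fibroblasts. They were -0.06, 0.01 and -0.04 for macrophages and leukocytes, and 0.10, -0.14 and 0.08 for endothelial cells. Single endothelial markers ran from -0.23 to 1.87, -0.57 to 0.52 and -0.09 to 0.85. The part of all these markers in the receptor differences was not tested. The Adra1b difference lay above that of each of the 10 heart muscle markers in every series. All of these markers were brighter than Adra1b, with nonpulsed means from 11.0 (Ryr2) to 13.3 (Tnnt2) against 8.33. The part of brightness in that order was not tested. These markers differed by 0.30 to 1.54 in series 1, by 0.05 to 0.40 in series 2 and by -0.12 to 0.21 in series 3, as ranges over the markers. The Adrb1 and Chrm2 differences lay inside those ranges in all 3 series. That of Adra1d was above the range in series 1 (1.77) and below it in series 3 (-0.21), and that of Adra1a was above it in series 2 (1.08).

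Adra1b averaged 9.63 ± 0.48 in pulsed cultures with blebbistatin (SD, n = 3) and 9.56 ± 0.38 in pulsed cultures (SD, n = 4). It read 9.25, 9.48 and 10.17 with blebbistatin in series 2 to 4, against 9.62, 9.0, 9.78 and, in series 1, 9.83 in pulsed cultures. Series 2 was lower with the drug by 0.37 on the log2 scale, while series 3 and 4 were higher by 0.49 and 0.39. The fitted log2 change was 0.0050 (SE 0.30, 95% confidence interval -0.69 to 0.70; limma, Benjamini-Hochberg adjusted p = 0.996), and it draws on the nonpulsed arrays too; the fit of these groups alone gave 0.17. As a fold the interval runs from 0.62 to 1.62, so that equal levels were not shown.

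Chrm2 was lower and Adra1d higher with blebbistatin in all 3 series that held both groups, which held for 15.2% and 23.5% of the probe sets tested. Chrm2 read 7.11, 7.38 and 7.38 with blebbistatin in series 2 to 4, against 7.65, 7.58, 7.43 and 7.39 in the pulsed cultures of series 1 to 4. All blebbistatin arrays lay below all pulsed ones (3.67% of the probe sets tested), but in series 3 and 4 by no more than 0.04. The Chrm2 differences were -0.47, -0.04 and -0.01, and the fitted log2 change was -0.24 (SE 0.15, 95% confidence interval -0.60 to 0.11; limma, Benjamini-Hochberg adjusted p = 0.577). Without the blebbistatin array of series 2 it was -0.11. Adra1d read 8.57, 8.17 and 8.60 with blebbistatin in series 2 to 4, higher than its pulsed partners by 0.18, 0.54 and 0.61. Its fitted log2 change was 0.25 (SE 0.32, 95% confidence interval -0.50 to 0.99; limma, Benjamini-Hochberg adjusted p = 0.805). It was 0.44 without series 1, 0.08 without series 4 and 0.03 without the pulsed array of series 3.

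Adrb1 read 6.70, 6.58 and 6.94 with blebbistatin in series 2 to 4, and its fitted log2 change from pulsed cultures was 0.04 (SE 0.12, 95% confidence interval -0.23 to 0.31; limma, Benjamini-Hochberg adjusted p = 0.926). Adra1a read 4.87, 4.67 and 4.96 with the drug, with a change of -0.07 in the fit without the filter (SE 0.25, 95% confidence interval -0.69 to 0.54). None of the 4 receptor probe sets tested passed, where 0.0129% of all probe sets did, and 0 of them had an unadjusted p under 0.05 in limma, against 11.6% of all probe sets. No marker of another cell type passed the test either. Negative changes were found for 11 of 11 markers of smooth muscle cells and pericytes (median -0.66), 8 of 8 of macrophages and leukocytes (-0.33), 10 of 11 of fibroblasts (-0.28) and 5 of 6 of endothelial cells (-0.16). They were also found for 3 of 5 markers of Schwann and neural cells (-0.07), 3 of 6 of atrial muscle cells (-0.0054) and 4 of 10 of heart muscle cells (0.01). Over all probe sets 55.5% had a positive change, with a median of 0.02. The part of these markers in the receptor values was not tested.

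The third comparison, of pulsed cultures with blebbistatin and nonpulsed cultures, shares its arrays with the others, and its values are given beside them. Adra1b averaged 9.63 ± 0.48 with blebbistatin and 8.33 ± 0.50 in nonpulsed cultures (SD, n = 3 each). The groups did not overlap, and the differences were 0.67 in series 2 and 0.84 in series 3. The fit gave a 2.14-fold difference with a 95% confidence interval of 1.25 to 3.67 (log2 change 1.1, SE 0.33; limma, Benjamini-Hochberg adjusted p = 0.128). Both series differences were smaller than this fitted change, which also draws on series 1 through the pulsed arrays. The Adra1b change was 0.75 in the fit of these groups alone and 0.81 without the nonpulsed array of series 1. With culture series as a random instead of a fixed block Adra1b passed, at a log2 change of 1.20 (limma, Benjamini-Hochberg adjusted p = 0.0461), in a fit that called 5.21% of all probe sets against 0.472% with the fixed block. In series 2 and 3 the Adra1b difference was again above that of each of the 10 heart muscle markers, which spanned -0.35 to 0.41 and -0.45 to 0.53. The markers were brighter than Adra1b here too, and the part of brightness was not tested.

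Adra1d averaged 8.45 ± 0.24 with blebbistatin and 7.52 ± 0.70 in nonpulsed cultures (SD, n = 3 each), with a log2 change of 0.84 (SE 0.36; limma, Benjamini-Hochberg adjusted p = 0.225). Its differences were 0.57 and 0.33 in series 2 and 3, smaller than the fitted change, which also draws on series 1 through the pulsed arrays. The Adra1d change was 0.49 without series 1 and 0.45 in the fit of these groups alone. Adrb1 averaged 6.74 ± 0.18 with blebbistatin and 6.32 ± 0.11 in nonpulsed cultures (SD, n = 3 each), with a log2 change of 0.38 (SE 0.13; limma, Benjamini-Hochberg adjusted p = 0.156) and differences of 0.26 and 0.37. Adra1a had a change of 0.60 (SE 0.29) in the fit without the filter, with differences of 0.85 and -0.07; without the nonpulsed array of series 3 it was 1.06, without that of series 2 it was 0.40, and the fit of these groups alone gave 0.39. Chrm2 averaged 7.29 ± 0.15 with blebbistatin and 7.18 ± 0.24 in nonpulsed cultures (SD, n = 3 each), with a change of 0.09 (SE 0.17) and differences of opposite sign, -0.17 and 0.03. Adra1b, Adra1d and Adrb1 had blebbistatin arrays above all nonpulsed ones, against 17.6% of the probe sets tested, and were higher in both series, against 38.7%. Adra1b and Adrb1 had an unadjusted p under 0.05 in limma, against 15.5% of all probe sets that were higher at that threshold.

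**Figure D3:**
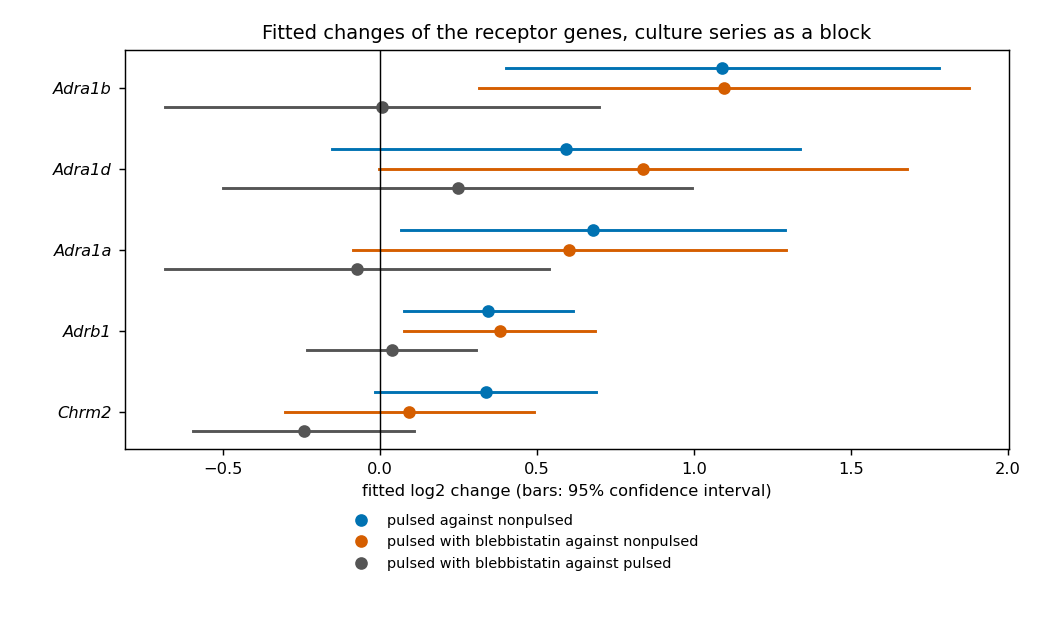
Fitted log2 change of each receptor gene (x axis) in the 3 comparisons, with 95% confidence intervals as bars. Both comparisons with nonpulsed cultures place Adra1b near 1.09, but they share a fit and the nonpulsed arrays. The fit of blebbistatin and nonpulsed cultures alone gave 0.75 for Adra1b. Every interval between blebbistatin and pulsed cultures includes 0.

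Across the 10 arrays the 5 receptor genes varied together after the mean of each culture series was subtracted. The correlation was highest between Adrb1 and Adra1b (Pearson r = 0.98), followed by Adra1b with Adra1d (0.92) and lowest between Adra1d and Chrm2 (0.69). As deposited, without that subtraction, the same 3 pairs had correlations of 0.87, 0.85 and 0.61, and the lowest were those of Adrb1 with Chrm2 (0.47) and with Adra1a (0.51). For all 5 genes the difference between pulsed and nonpulsed cultures was largest in series 1 (0.61 for Adrb1 to 2.08 for Adra1b). The spread of this difference over all probe sets kept was widest in that series too. The weight of that series in the correlations was not tested. The arrays share culture series and groups, and 6 independent differences remain after the subtraction, so these correlations describe the arrays only.

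The genes closest to each receptor by that measure were taken as the top 5 of 16734 probe sets with 1 symbol. For Adra1b they were Camk2a, a calcium and calmodulin dependent kinase (r = 1.00 after rounding, 0.96 as deposited), the muscle transcription factor gene Mef2a, the potassium channel gene Kcnh2, Tbc1d4 and Map4k4, with r down to 0.99. For Adra1d they were Mical3, Phyh, Ptpdc1, Cox7c and the calcineurin subunit gene Ppp3ca, all at 0.99. For Adrb1 they were Pcare, Cirbp, Vps13d, Prkab1 and Cyth1, all at 0.99, but Pcare and Vps13d had an r of 0.45 and 0.51 in the values as deposited. For Chrm2 they were Arfgef1, Rbbp6, Vnn1, Rab29 and Sphkap, at 0.98 to 0.99, of which Rbbp6 had 0.59 as deposited. The median r over all candidates was 0.11 to 0.23 for the 4 receptors, and the top of so many candidates is high by its choice.

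Of the other receptors of the same families, 8 were measured. The brightest probe sets of Adrb3, Adra2a, Adra2b, Chrm3 and Chrm5 passed the filter, with fitted changes of 0.09, -0.0003, -0.02, -0.06 and -0.41, and 0 of 5 passed the test in any comparison. Chrm5, the M5 muscarinic receptor gene, averaged 5.04 ± 0.14 in pulsed and 5.43 ± 0.16 in nonpulsed cultures (SD, n = 4 and 3), and had differences of -0.30, -0.39 and -0.49 in series 1, 2 and 3 (limma, Benjamini-Hochberg adjusted p = 0.494). Its pulsed mean lay below the filter limit of 5.09 and its nonpulsed mean above it. Chrm5 was therefore kept partly through the group where it was higher, and its differences only describe a dim gene. Further probe sets of Adra2a and Chrm3 had changes of 0.07 and 0.21. Adra2c, Chrm1 and Chrm4 were below the filter, and Adra2c and Chrm1 were at the lowest level on 3 and 4 arrays.

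None of the genes on the signalling lists passed the test in any of the 3 comparisons. In the Gs and cyclic AMP arm downstream of Adrb1, 15 of 19 genes had a positive change between pulsed and nonpulsed cultures, with a median of 0.17, against 0.04 and 61.1% positive over all probe sets. Heart muscle markers moved the same way, with 10 of 10 positive and a median of 0.31, and Pln is on both lists. The medians of the arm in series 1, 2 and 3 were 0.32, 0.15 and 0.06, and the part of the markers in them was not tested. The largest was that of Pde4b, a phosphodiesterase that breaks down cyclic AMP (0.51, SE 0.23; 0.98, 0.68 and 0.19 in series 1, 2 and 3), and the lowest that of Crem, a cyclic AMP responsive transcription factor gene (-0.05, SE 0.14). Between blebbistatin and pulsed cultures the median of this arm was -0.05, from Pde3b (-0.44, SE 0.22) to Ppp1r1a, a protein phosphatase inhibitor gene (0.25, SE 0.15). Between blebbistatin and nonpulsed cultures it was 0.12, with Akap6, which anchors protein kinase A, at 0.66 (SE 0.20) and Pde3b, a phosphodiesterase gene, at -0.47 (SE 0.25). The second probe set of Akap6 had a smaller change of 0.30.

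In the Gq and phospholipase C arm downstream of the alpha 1 receptors, the median change between pulsed and nonpulsed cultures was -0.04. A positive change was found for 3 of 12 genes of this arm, against 61.1% of all probe sets. Gnaq, which encodes the Gq alpha subunit itself, had the lowest change (-0.27, SE 0.10; -0.45, -0.28 and -0.16 in series 1, 2 and 3; limma, Benjamini-Hochberg adjusted p = 0.497), and Prkce, a protein kinase C gene, the highest (0.24, SE 0.24). The medians were -0.05 between blebbistatin and pulsed and -0.09 between blebbistatin and nonpulsed cultures. Prkca was highest in both, at 0.35 (SE 0.14) and 0.35 (SE 0.15). Trpc6, a cation channel gene opened by diacylglycerol, was lowest in both, at -0.30 (SE 0.57) and -0.56 (SE 0.65).

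In the Gi arm downstream of Chrm2, the largest change between pulsed and nonpulsed cultures was that of Kcnj5, a subunit gene of the acetylcholine-gated potassium channel. Kcnj5 averaged 8.31 ± 0.38 in pulsed and 7.53 ± 0.25 in nonpulsed cultures (SD, n = 4 and 3). Its log2 change was 0.81 (SE 0.21; limma, Benjamini-Hochberg adjusted p = 0.481), with differences of 1.41, 0.91 and 0.21 in series 1, 2 and 3, and 0.59 at its second probe set. The median of the arm was -0.04 over 9 genes, and Gnai1, a Gi alpha subunit gene, was lowest (-0.24, SE 0.11).

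Between blebbistatin and pulsed cultures the 2 ends of this arm were regulators of G protein signalling. Rgs4, which speeds the shut-off of Gi and Gq, averaged 5.84 ± 0.49 with blebbistatin and 7.03 ± 0.38 in pulsed cultures (SD, n = 3 and 4). Its log2 change was -0.97 (SE 0.21; limma, Benjamini-Hochberg adjusted p = 0.229), with -1.60, -1.04 and -0.41 in series 2, 3 and 4 and -0.62 at its second probe set. Rgs6, which restrains muscarinic signalling in the heart, averaged 7.88 ± 0.25 with blebbistatin and 7.26 ± 0.25 in pulsed cultures (SD, n = 3 and 4), with a change of 0.50 (SE 0.22; limma, Benjamini-Hochberg adjusted p = 0.444). Against nonpulsed cultures, Rgs6 was the highest at 1.08 (SE 0.25; limma, Benjamini-Hochberg adjusted p = 0.0885) and Rgs4 the lowest at -0.61 (SE 0.24).

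**Figure D4:**
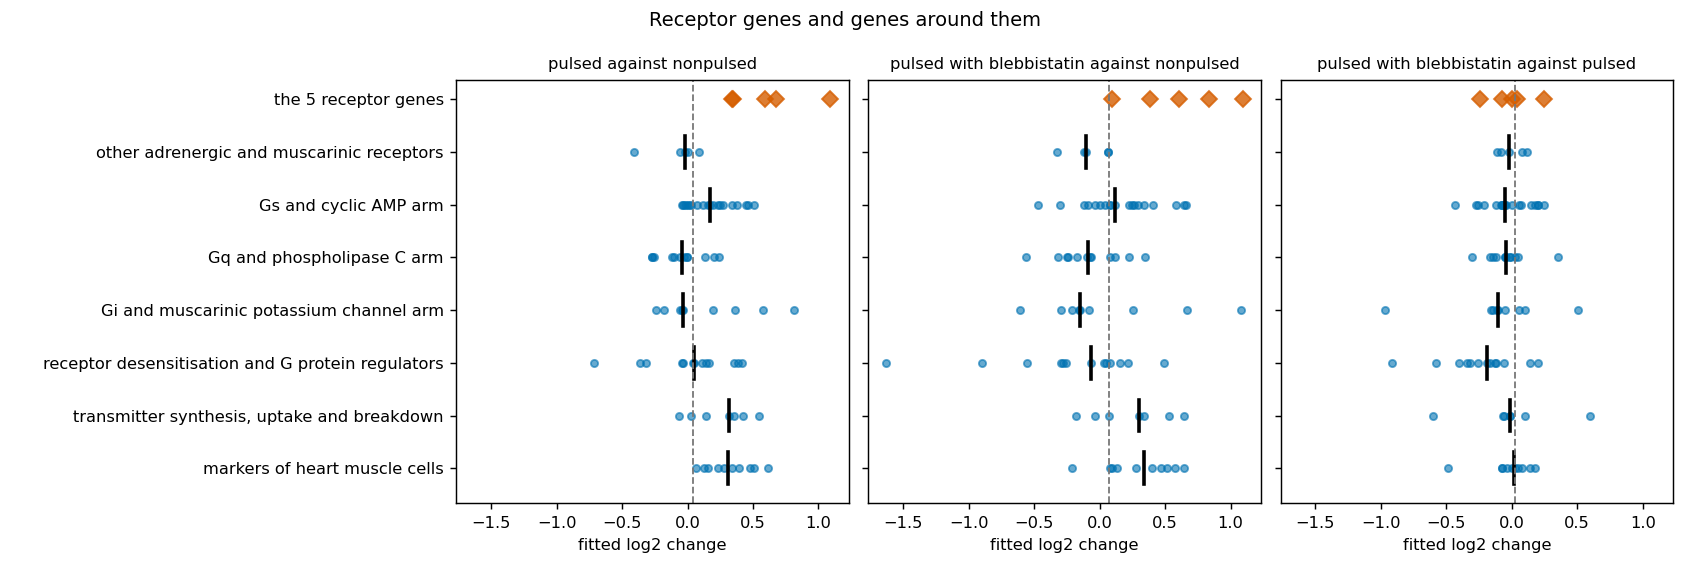
Fitted log2 change (x axis) of the 5 receptor genes (diamonds) and of the genes above the filter on the lists around them (points, 1 per gene), with list medians as black bars and the median of all probe sets as a dashed line. Adra1b lies to the right of every other point in the comparison of pulsed and nonpulsed cultures.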

How the data were processed

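The values used are the log2 levels deposited by the authors; the submitters' processing notes name PLIER and Affymetrix Expression Console 1.1. The settings and the log base were not given in the sources used, and base 2 was inferred from the lowest level of each array (10.0 to 10.97 when made linear). That level was shared by 1988 to 2276 probe sets of an array, which can shrink a difference measured on a dim gene. No further scaling was applied.

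Of 31099 probe sets, 57 controls were left out. The platform annotation gave 1 symbol to 20826, several to 436 and none to 9780. For the test, probe sets in the lowest 25% of mean value (below 5.09) were left out, which kept 23281 (4 of the 5 members). Coordinates are given for RefSeq promoters only.

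Groups came from the treatment labels and culture series, numbered 1 to 4, from the titles. The 4 pulsed arrays were all included, although the design text counts 3 per treatment. Arrays of the same series but different groups deviated together from their group means (r of 0.353 to 0.633 in 8 pairs, against -0.578 to 0.498 in 25 other pairs), and series was a fixed block in the fit. Limma 3.58.1 in R 4.3.3 (lmFit, eBayes, two-sided) was fitted per probe set on all 10 arrays, with Benjamini-Hochberg adjustment across the probe sets kept. A fitted change therefore also draws on the group not compared. For genes with several probe sets on a list, the one with the highest mean was used. On simulated data of 23281 probe sets for blebbistatin against pulsed cultures, 68 of 100 log2 changes of 1 and 95 of 100 changes of 2 were recovered with 10 false calls. The noise was drawn independently for each probe set, so deviations shared over a whole array were left out. Recovery was not measured for the comparisons with nonpulsed cultures, and real data may yield less.

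Named were every receptor probe set, and per list and comparison the members that passed or else the largest rise and fall; the other receptor genes; and the 5 probe sets most like each receptor. Members, lists and rule were chosen with earlier results of these data known. Alternatives covered the block, the arrays fitted, scaling, filter, probe set rule, prior and leaving out each array or series. The number of arrays limits the precision.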

Additional observations from a re-analysis of the deposited data

How the results depend on the processing

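The 15 fitted changes of the receptor genes kept their sign and their side of the threshold in 335 of 360 values over 24 alternatives. In the comparison of pulsed with nonpulsed cultures the count of receptor probe sets that passed stayed 0, as did the count over all probe sets (limma; 2 receptor probe sets and 2113 of all had an unadjusted p under 0.05). The 1 receptor call was that of Adra1b between blebbistatin and nonpulsed cultures with a random replicate block, which called 1 receptor probe set and 1212 in all. The smallest adjusted p of Adra1b there over the 24 alternatives was 0.0461 and the largest 0.325. Signs turned only for changes near 0. Between blebbistatin and pulsed cultures, Adra1a was 0.075 with no replicate block and 0.011 with only the groups or series compared, Adra1b was -0.011 with quantile normalization and -0.0072 with median centring, and leaving out arrays or series gave -0.24 to 0.088 for Adra1a, -0.24 to 0.22 for Adra1b and -0.053 to 0.096 for Adrb1. Between blebbistatin and nonpulsed cultures Chrm2 was -0.068 with only the groups or series compared, and -0.027 to 0.27 on leaving out arrays or series.

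Counts over all probe sets were less stable, and the cause was not tested. Between blebbistatin and pulsed cultures, against 3 in the main setting, 5 passed with no replicate block, 14 with a random block, 12 with only the groups or series compared, 0 with no filter and 0 to 48 on leaving out arrays or series. Between blebbistatin and nonpulsed cultures, against 110, the counts were 46 with no replicate block, 1212 with a random block, 2 with only the groups or series compared, 67 with quantile normalization, 1 with no filter, 51 with probe sets above the lowest level on 3 arrays, 63 with 1 probe set per gene, 211 with a trended and robust prior and 0 to 69 on leaving out arrays or series. Fits of the groups compared and of the series that hold both groups gave the same values, since an array alone in its series adds nothing to a blocked difference.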

Other observations

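Genes that end receptor signalling or handle the transmitters were measured on the same arrays, and 0 passed the test in any comparison. Between blebbistatin and pulsed cultures, 11 of 13 genes of desensitisation and G protein regulation had a negative change, with a median of -0.19, against a median of 0.02 and 55.5% positive over all probe sets. Markers of smooth muscle cells and pericytes (11 of 11 negative, median -0.66) and of macrophages and leukocytes (8 of 8, -0.33) were lower in the same comparison, Rgs5 is on both the regulator and the smooth muscle list, and the part of these markers was not tested. Rgs16, a regulator of G protein signalling, was lowest (-0.92, SE 0.68, and -0.63, -1.46 and -1.96 in series 2, 3 and 4), and Rgs14 highest (0.20, SE 0.13). Between pulsed and nonpulsed cultures 8 of these 13 genes were positive, against 61.1% of all probe sets. The ends were Rgs5 at 0.42 (SE 0.21) and Rgs16 at -0.71 (SE 0.68). The Rgs16 differences were -3.30, 0.36 and 0.27 in series 1, 2 and 3. Between blebbistatin and nonpulsed cultures the ends were Arrb2, which encodes beta-arrestin 2 (0.49, SE 0.12; limma, Benjamini-Hochberg adjusted p = 0.0964), and Rgs16 (-1.63, SE 0.77). Arrb2 was dim, with a mean of 5.33 with blebbistatin and 4.75 in nonpulsed cultures. The nonpulsed mean lay below the filter limit of 5.09, so Arrb2 was kept through the groups where it was higher.

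Of the transmitter genes, 7 were above the filter. Dbh, the enzyme that makes noradrenaline from dopamine, averaged 7.59 ± 0.46 in pulsed and 7.19 ± 0.47 in nonpulsed cultures (SD, n = 4 and 3), with a change of 0.54 (SE 0.26) that came from series 1 (1.53, against 0.16 and -0.01 in series 2 and 3). Maoa, a monoamine oxidase that breaks noradrenaline down, was the lowest of that comparison at -0.06 (SE 0.16). Maoa averaged 11.31 ± 0.51 with blebbistatin and 10.49 ± 0.85 in pulsed cultures (SD, n = 3 and 4), with a change of 0.60 (SE 0.16; limma, Benjamini-Hochberg adjusted p = 0.303) and differences of 0.68, 0.22 and 0.70 in series 2, 3 and 4. Ddc, the decarboxylase that makes dopamine, was lowest there at -0.61 (SE 0.20) and -0.57 at its second probe set. Between blebbistatin and nonpulsed cultures Dbh was highest at 0.64 (SE 0.29) and Ddc lowest at -0.18 (SE 0.23).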
